A study of Homo sapiens with 3 samples.

Results

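The islet G protein coupled receptors described here are 9 genes of the 36601 counted: the incretin and glucagon receptors GLP1R, GIPR and GCGR, the parathyroid hormone 2 receptor PTH2R, the nutrient and ion sensors FFAR1 and CASR, the lysophosphatidic acid receptor LPAR1, the alpha-2A adrenoceptor ADRA2A and the somatostatin receptor SSTR2. They were chosen by name, with earlier results of these data known. Their UMI counts (unique molecular identifiers, 1 per captured transcript) were followed through 3 droplet single-cell RNA libraries. Within these, cells rich in INS, GCG, SST or TPH1 transcripts were compared. All 3 libraries came from islet-like clusters differentiated from HUES8, a human embryonic stem cell line. The cells were separated magnetically with an antibody against CD49a, the integrin encoded by ITGA1. They were cultured as new aggregates for 7 days as a CD49a-positive, a CD49a-negative or an unsorted fraction and then dispersed for sequencing. Each fraction was 1 library of 1 line, so no value below has a replicate. The intervals cover counting error only, and no difference was tested for significance.

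G protein coupled receptors span the membrane and pass a hormone, neurotransmitter or nutrient signal to a heterotrimeric G protein inside the cell. In islets, receptors that couple to Gs (GLP1R, GIPR, GCGR) raise cyclic AMP and increase secretion from cells that carry them, those that couple to Gq (FFAR1, CASR) raise calcium, and those that couple to Gi (ADRA2A, SSTR2) lower cyclic AMP and restrain secretion. Beta cells secrete insulin, alpha cells glucagon and delta cells somatostatin, and stem-cell differentiations also yield serotonin-making cells that resemble enterochromaffin cells of the gut.

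Cells were kept at 1000 or more genes and at most 20% mitochondrial UMIs, which left 2394 CD49a-positive, 1976 CD49a-negative and 2256 unsorted cells with median depths of 48538.5, 36997 and 42361 UMIs. A kept cell was called INS-rich at 30000 or more INS CPM (UMIs per 1000000 of its own), GCG-rich at 30000 GCG CPM, SST-rich at 20000 SST CPM and TPH1-rich at 200 TPH1 CPM, when it passed exactly 1 of these marks. Such classes are ranges and not types: 171, 156 and 154 cells lay within 20% of the INS mark, 60, 96 and 98 of the GCG mark, 27, 27 and 24 of the SST mark and 61, 114 and 137 of the TPH1 mark. In the order CD49a-positive, CD49a-negative and unsorted, there were 1513, 381 and 725 INS-rich cells, 192, 392 and 347 GCG-rich cells, 36, 87 and 72 SST-rich cells, and 91, 429 and 412 TPH1-rich cells. Cells past more than 1 mark numbered 186, 219 and 256, had medians of 73111, 61988 and 69323.5 UMIs, and were set apart, since they may hold pairs of cells. IAPP was highest in the INS-rich, IRX2 in the GCG-rich, HHEX in the SST-rich and FEV in the TPH1-rich class in each library, while the mature beta cell genes MAFA and UCN3 stayed at or under 1.82 CPM in every class. Other listed markers did not all follow. Of the delta cell markers, RBP4 was highest in SST-rich cells in 0 libraries and PRG4 in 1. RBP4 was at 66.0 to 133 CPM in INS-rich and 52.9 to 65.3 in SST-rich cells. Of the beta cell markers, UCN3 was highest in INS-rich cells in 0 libraries, and NKX6-1 and PCSK1 in 2. Taken over single cells, the median of INS outside the INS-rich class ran from 1151 to 8594 CPM, that of GCG outside the GCG-rich class from 107 to 262, that of SST outside the SST-rich class from 31.0 to 435, and that of TPH1 was 0. Summed INS RNA in the GCG-rich, SST-rich and TPH1-rich classes was 6.63% to 15.6% of its INS-rich level. INS also set a class mark, so this share depends on the marks and does not measure carried receptor RNA. Whether that INS RNA was the cells' own, free RNA or from paired cells was not tested, nor was its part in the receptor levels. Summed acinar, endothelial, neural or glial and pluripotent markers stayed at or under 2.56 CPM in every class and library, and 12 barcodes occurred in more than 1 library. Other marker sets stood higher. In SST-rich cells the summed ghrelin and pancreatic polypeptide cell markers (GHRL, ACSL1, PPY and PHGR1) were at 309, 497 and 453 CPM. Summed duct markers there were at 110, 122 and 124 CPM. In TPH1-rich cells summed immune markers were at 17.6, 30.2 and 22.6 CPM and mesenchymal markers at 3.03, 17.5 and 6.53.

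The 250 bases before the RefSeq start of 4 receptors are shown because these receptors stand for the main patterns. Among the 4 classes, GLP1R and ADRA2A were highest in TPH1-rich cells, CASR in INS-rich cells and SSTR2 in GCG-rich cells. Sequences are from RefSeq on GRCh38.p14, 5′ to 3′ on the gene's strand. Capitals mark 3 short motifs found on either strand. The first is the TATA box, searched as TATAAA. The second is the core that cyclic AMP response elements hold, searched as TGACG. The third is the core that many homeodomain proteins bind, searched as TAAT.
GLP1R, chr6:39048531-39048780, plus strand: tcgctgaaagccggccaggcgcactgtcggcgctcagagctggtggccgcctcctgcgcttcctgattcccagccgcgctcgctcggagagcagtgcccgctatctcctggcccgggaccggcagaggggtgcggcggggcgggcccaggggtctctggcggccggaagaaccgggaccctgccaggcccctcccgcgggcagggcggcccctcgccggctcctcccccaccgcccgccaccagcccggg
ADRA2A, chr10:111076779-111077028, plus strand: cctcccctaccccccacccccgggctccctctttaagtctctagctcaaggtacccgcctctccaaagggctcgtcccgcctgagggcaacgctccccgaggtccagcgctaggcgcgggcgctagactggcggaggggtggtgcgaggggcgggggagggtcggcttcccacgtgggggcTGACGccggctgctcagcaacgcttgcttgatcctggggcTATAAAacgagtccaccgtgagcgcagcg
CASR, chr3:122183418-122183667, plus strand: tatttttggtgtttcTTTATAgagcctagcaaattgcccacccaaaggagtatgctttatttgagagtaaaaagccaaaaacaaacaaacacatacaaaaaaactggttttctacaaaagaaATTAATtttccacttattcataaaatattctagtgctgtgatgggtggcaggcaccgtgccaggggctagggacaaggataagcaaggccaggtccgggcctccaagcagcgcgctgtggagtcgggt
SSTR2, chr17:73164760-73165009, plus strand: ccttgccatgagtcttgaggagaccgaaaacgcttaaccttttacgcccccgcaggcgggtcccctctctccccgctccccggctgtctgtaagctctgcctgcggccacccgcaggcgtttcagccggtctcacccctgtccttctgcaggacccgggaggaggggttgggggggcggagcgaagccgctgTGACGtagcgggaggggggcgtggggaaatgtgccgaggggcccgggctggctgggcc
The GLP1R window was 77.2% G and C and held none of the 3 motifs. ADRA2A, at 68.8%, held 1 cyclic AMP element core and 1 TATA box, and SSTR2, at 69.2%, held 1 cyclic AMP element core. CASR stood apart at 43.2% G and C, with 1 TATA box and 2 overlapping homeodomain cores. Of 35116 RefSeq windows of this length, 10.7% held the TATA box, 21.2% the cyclic AMP element core and 47.4% the homeodomain core, and a match is a description only.

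A class difference was called for a gene when it passed 2-fold on log2(CPM + 1) in the same direction in each of the 3 libraries, among genes at 5 CPM and 20 UMIs or more in the higher class. The rule called 7 of the 9 receptors between INS-rich and GCG-rich cells, against 5.55% of the 12151 genes compared: GLP1R, GCGR, PTH2R, CASR and ADRA2A were higher in INS-rich cells, and LPAR1 and SSTR2 were higher in GCG-rich cells. Between GCG-rich and TPH1-rich cells it also called 7 of 9 (background 9.25%). FFAR1, LPAR1 and SSTR2 were higher in the GCG-rich cells, and GLP1R, GCGR, PTH2R and ADRA2A in the TPH1-rich cells. INS-rich and TPH1-rich cells were closer, with 2 of 9 called (background 4.77%), FFAR1 higher in INS-rich and GLP1R in TPH1-rich cells. SST-rich cells had lower PTH2R, FFAR1 and ADRA2A than INS-rich cells, 3 of 9 called (3.49%). FFAR1, LPAR1 and SSTR2 were lower in SST-rich than in GCG-rich cells, 3 of the 6 that passed the floor (2.74%). Against TPH1-rich cells, LPAR1 was higher and GLP1R, PTH2R and ADRA2A were lower in SST-rich cells, 4 of the 8 that passed it (5.05%). The median log2 difference of the 9 receptors was 1.12 between INS-rich and GCG-rich cells, -0.75 between GCG-rich and TPH1-rich cells and 0.25 between INS-rich and TPH1-rich cells, against -0.01, -0.13 and -0.16 over all genes compared. The classes share a library and its free RNA, and a gene raised in 1 class enters 3 of these pairs. Since the receptors were chosen with earlier results of these data known, their counts beside the background are a description only.

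**Figure D1:**
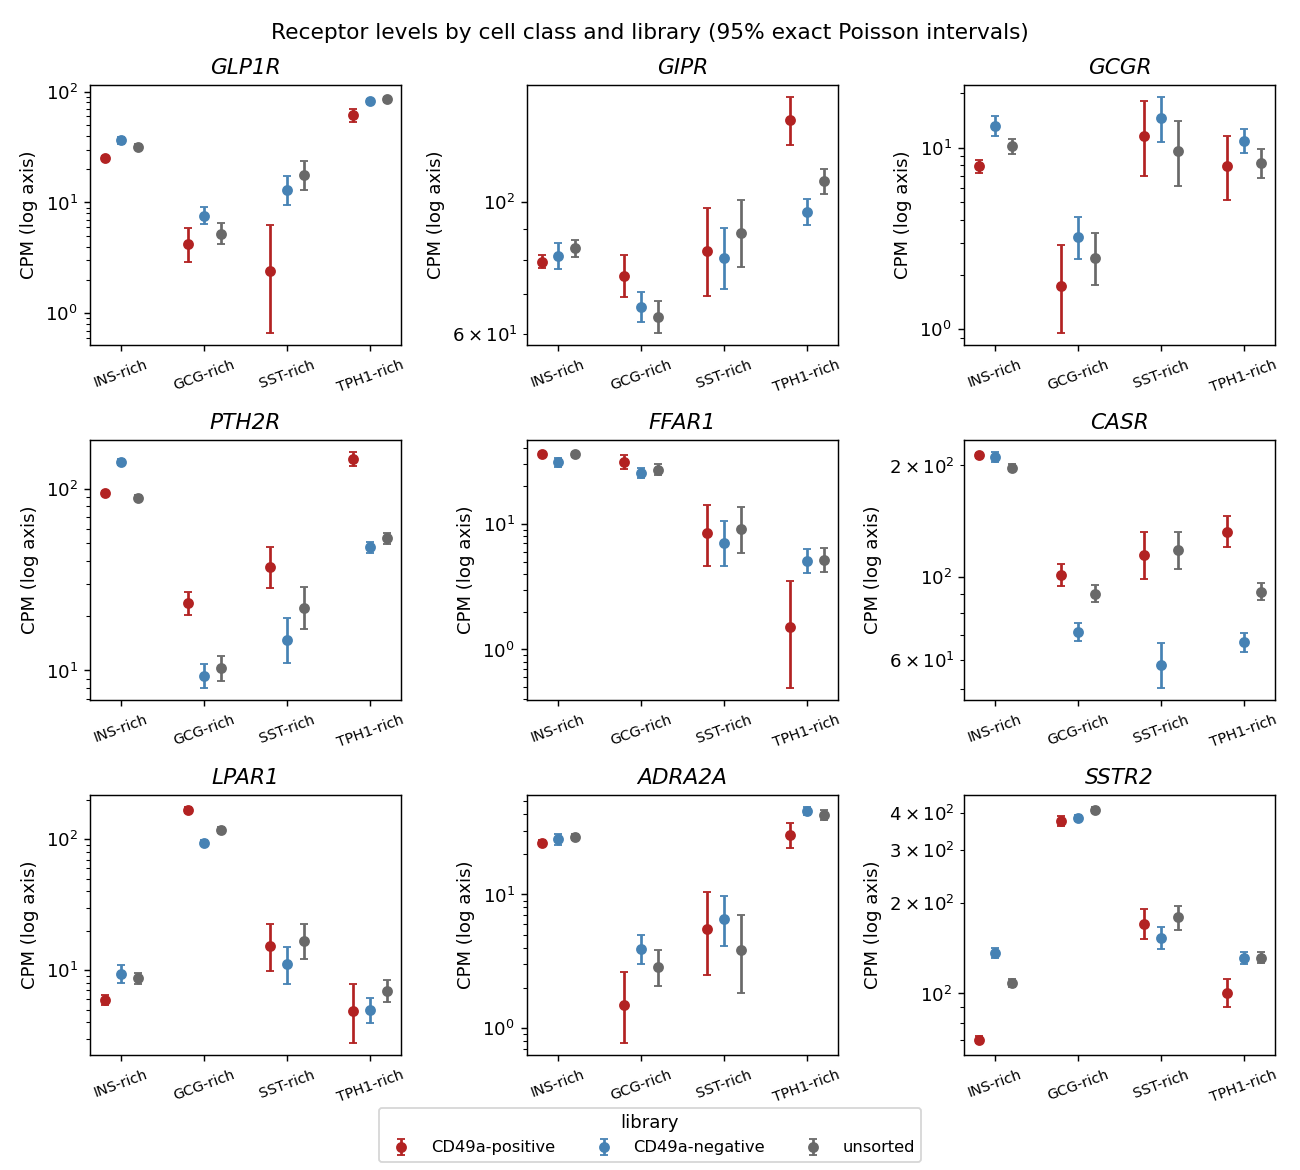
Level of each receptor (CPM, log axis) in the 4 cell classes, with 1 point per library and its 95% exact Poisson interval. GCG-rich points lie far above the rest for LPAR1 and SSTR2 and below the INS-rich and TPH1-rich points for GLP1R, GCGR, PTH2R and ADRA2A.

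**Figure D2:**
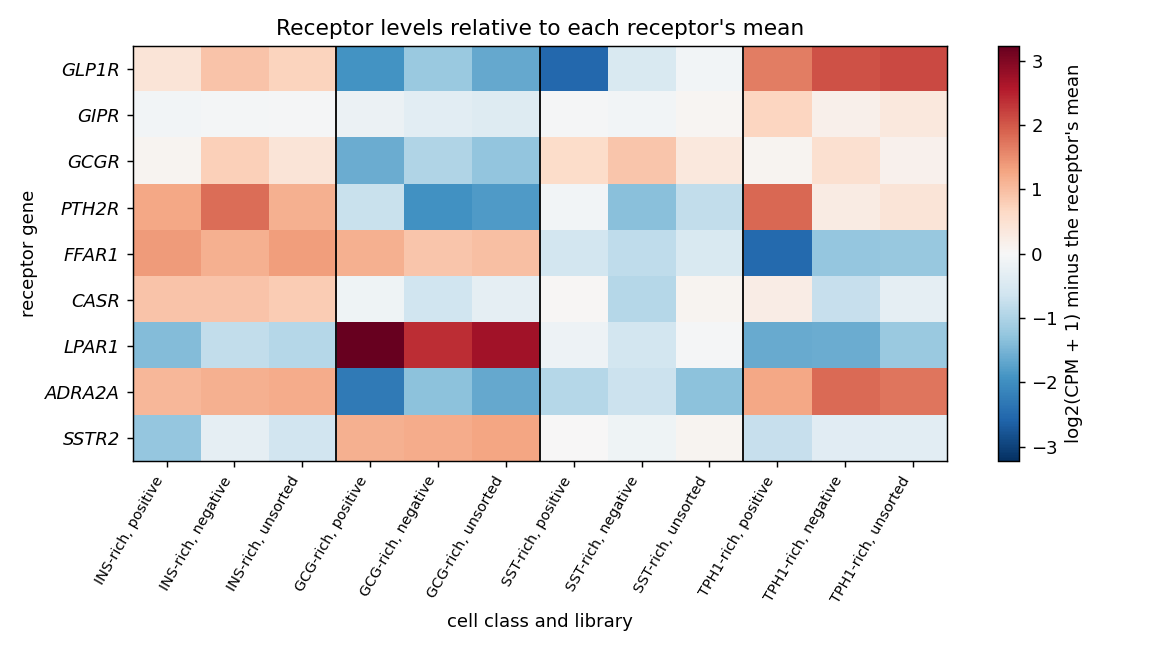
Each receptor's log2(CPM + 1) minus its own mean over the 12 sums of 4 classes and 3 libraries, red above and blue below that mean. The 3 libraries of a class mostly share a colour, and GIPR is the palest row.

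GLP1R, the receptor of glucagon-like peptide-1 and of the drugs built on it, lies at chr6:39048798-39087743 (GRCh38, plus strand). It was at 25.4 CPM (95% interval 24.3 to 26.5) in CD49a-positive, 36.3 (33.5 to 39.1) in CD49a-negative and 31.7 (30.1 to 33.4) in unsorted INS-rich cells. In TPH1-rich cells it was at 61.2, 81.6 and 85.0 CPM, in GCG-rich cells at 4.23, 7.62 and 5.25, and in SST-rich cells at 2.43, 13.1 and 17.6. The order TPH1-rich, INS-rich and then the other two held in all 3 libraries with no overlap between the first and second. TPH1-rich exceeded INS-rich cells 2.41-fold (2.08 to 2.79), 2.25-fold (2.05 to 2.48) and 2.68-fold (2.48 to 2.89), and exceeded GCG-rich cells 14.5-fold, 10.7-fold and 16.2-fold. With every cell thinned to 10000 UMIs, 41.2%, 51.6% and 57.0% of TPH1-rich cells held a GLP1R UMI, against 22.0%, 29.9% and 25.6% of INS-rich and 4.47%, 4.45% and 2.43% of GCG-rich cells; unthinned, the TPH1-rich shares were 69.2%, 80.4% and 81.1%. The summed GLP1R level of GCG-rich cells was 16.7%, 21.0% and 16.5% of the INS-rich level. For INS itself it was 10.1%, 10.3% and 9.29%, a share that depends on the INS class mark. Of the 135 GLP1R UMIs in CD49a-negative GCG-rich cells, 88 lay in 38 cells of cluster 8 of the grouping described under PTH2R. The INS-rich cells had the greater depth, with medians of 53841, 43312 and 56952 UMIs against 29736, 31029 and 31240 in TPH1-rich cells.

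GIPR, the receptor of the other incretin, glucose-dependent insulinotropic polypeptide (chr19:45668244-45683724, plus strand), was the most even of the 9. It was at 79.4, 81.1 and 83.6 CPM in INS-rich, 75.1, 66.5 and 64.0 in GCG-rich, 82.7, 80.4 and 88.7 in SST-rich and 137, 96.3 and 108 in TPH1-rich cells. TPH1-rich cells were highest in each library, and in each the GCG-rich cells were lowest, at 54.7%, 69.0% and 59.1% of the TPH1-rich level. No pair of classes was called. INS-rich and SST-rich cells could not be told apart within counting error, with ratios of SST-rich to INS-rich of 1.04 (0.872 to 1.23), 0.992 (0.870 to 1.13) and 1.06 (0.924 to 1.21).

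GCGR, the glucagon receptor (chr17:81804132-81814013, plus strand), was scarce, and least abundant in the cells that make its ligand. GCG-rich cells held 1.74 (0.953 to 2.92), 3.22 (2.44 to 4.17) and 2.47 (1.75 to 3.37) CPM. INS-rich cells held 7.89, 13.2 and 10.2 CPM, TPH1-rich cells 7.88, 10.9 and 8.20, and SST-rich cells 11.6, 14.5 and 9.55. The 95% intervals of these 3 classes overlapped one another in every library, and the GCG-rich interval lay below all of them in each. INS-rich exceeded GCG-rich cells 4.52-fold (2.68 to 8.32), 4.10-fold (3.06 to 5.58) and 4.12-fold (2.96 to 5.86). None of the 4 classes had more than 14.5 CPM, and at most 13.1% of thinned INS-rich cells held a GCGR UMI.

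PTH2R, a class B receptor activated by the tuberoinfundibular peptide encoded by PTH2, spans chr2:208359714-208854503 (plus strand), the longest gene of the set. In INS-rich cells it was at 94.2 (92.2 to 96.4), 140 (134 to 145) and 89.0 (86.3 to 91.8) CPM, and in GCG-rich cells at 23.4, 9.37 and 10.3. SST-rich cells held 37.1, 14.8 and 22.2 CPM and TPH1-rich cells 146, 47.6 and 53.1. INS-rich exceeded GCG-rich cells 4.03-fold (3.48 to 4.68), 14.9-fold (12.7 to 17.6) and 8.63-fold (7.38 to 10.2). The order of INS-rich and TPH1-rich cells was not the same in all libraries: TPH1-rich was the higher in the CD49a-positive library and INS-rich in the other two. With the class marks halved, or with classes made from the clusters described below, INS-rich was the higher in all 3 libraries. Thinned, 35.9%, 43.0% and 35.3% of INS-rich and 27.5%, 19.1% and 13.2% of TPH1-rich cells held a UMI. The most in 1 INS-rich cell was 86, 63 and 89 UMIs before thinning.

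PTH2R varied widely within the INS-rich class. Among the Leiden clusters (groups of cells with like expression, made with the 9 receptors left out of the genes used), the INS-rich cells of cluster 2, led by CXCL12 and RBP4, held 25.1, 47.0 and 22.3 CPM. Those of cluster 0, led by HADH and PLAGL1, held 61.9, 119 and 65.8. Those of cluster 7, led by CCSER1 and KCNH1, held 174, 320 and 189, and those of cluster 11, led by SPON1 and FSTL4, held 296, 240 and 198. Each cluster of the higher pair lay above each of the lower pair in every library, and the clusters were not named as cell types. Since clusters were built from the same cells, this is a description and not a test. CASR was likewise higher in cluster 7 than in cluster 2: cluster 7 held 300.0, 355 and 314 CPM and cluster 2 held 175, 181 and 163. FFAR1 ran the other way, with 51.2, 48.8 and 51.9 CPM in cluster 2 and 17.6, 20.2 and 18.1 in cluster 11. Cells that passed no class mark were also PTH2R-rich, at 202, 81.4 and 114 CPM over the whole group.

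**Figure D3:**
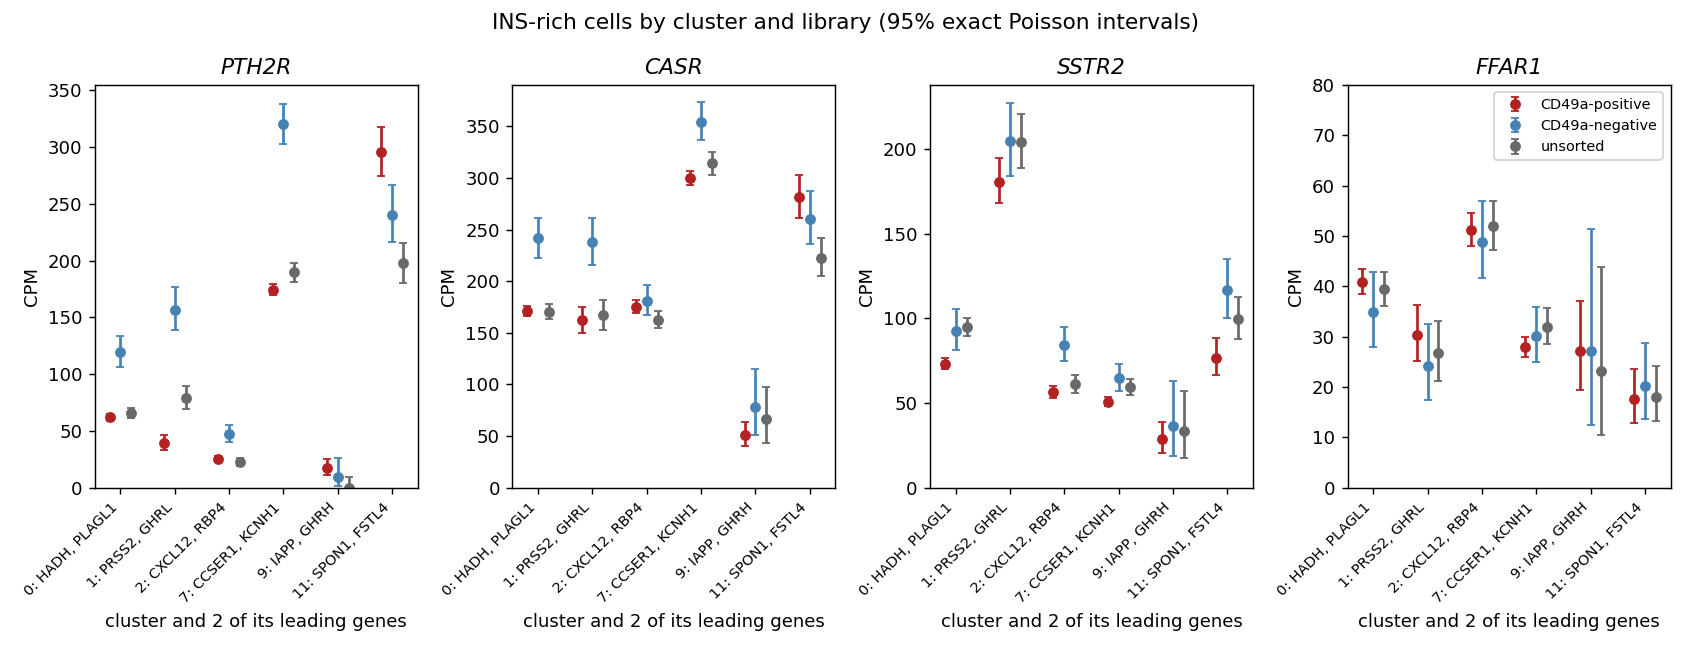
Level (CPM, linear axis) of PTH2R, CASR, SSTR2 and FFAR1 in INS-rich cells of the 6 clusters that held at least 20 such cells in each library, with 1 point per library and its 95% exact Poisson interval. PTH2R is highest in clusters 7 and 11, FFAR1 in cluster 2 and SSTR2 in cluster 1.

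In GCG-rich cells a large share of PTH2R came from few cells. Of the 188, 166 and 163 PTH2R UMIs of that class, 110, 76 and 137 lay in 10, 8 and 9 cells of cluster 1, a cluster led by PRSS2 and GHRL. In these GCG-rich cells INS stood at 16555, 15004 and 17272 CPM and GCG at 46660, 61035 and 51970 CPM. Over the cells of cluster 1 from every class, INS stood at 45410.5 CPM and GCG at 23378 CPM. In the clusters that hold most GCG-rich cells, PTH2R was at 1.50, 0.187 and 0 CPM (cluster 5, led by GCG and FXYD3) and at 2.83, 2.11 and 0.147 CPM (cluster 6, led by VEGFC and GRIN3A). These levels were lower than those of the whole class in every library.

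FFAR1, a receptor of long-chain fatty acids that raises glucose-stimulated insulin secretion (chr19:35351552-35353862, plus strand), was shared by INS-rich and GCG-rich cells. It was at 36.4 (35.1 to 37.7), 31.0 (28.5 to 33.7) and 35.9 (34.1 to 37.7) CPM in INS-rich and at 31.1, 25.6 and 27.1 in GCG-rich cells. SST-rich cells held 8.51, 7.11 and 9.17 CPM and TPH1-rich cells 1.52, 5.09 and 5.20. INS-rich exceeded GCG-rich cells by 1.17-fold (1.03 to 1.34), 1.21-fold (1.07 to 1.37) and 1.32-fold (1.19 to 1.47), beyond counting error but within 2-fold. INS-rich exceeded TPH1-rich cells 24.0-fold (10.3 to 74.1), 6.10-fold (4.83 to 7.78) and 6.90-fold (5.49 to 8.77), the first resting on 5 UMIs in the TPH1-rich cells. The TPH1-rich levels were 4.16%, 16.4% and 14.5% of the INS-rich ones. INS RNA there was at 10.5%, 8.37% and 6.63% of its INS-rich level, a share that depends on the INS class mark.

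CASR, the extracellular calcium receptor (chr3:122183683-122291629, plus strand), was highest in INS-rich cells among the 4 classes in all 3 libraries. It was at 213 (210 to 216), 211 (204 to 218) and 197 (193 to 201) CPM there, and at 101, 71.2 and 90.3 in GCG-rich, 115, 58.0 and 118 in SST-rich and 133, 66.7 and 91.4 in TPH1-rich cells. INS-rich exceeded GCG-rich cells 2.10-fold (1.96 to 2.26), 2.97-fold (2.78 to 3.16) and 2.18-fold (2.06 to 2.31). The excess over TPH1-rich cells was 1.60-fold, 3.16-fold and 2.16-fold and over SST-rich cells 1.85-fold, 3.64-fold and 1.67-fold, so neither was called. GCG-rich, SST-rich and TPH1-rich cells changed places between libraries. In CD49a-negative cells all 3 were lower than in CD49a-positive cells, while INS-rich cells of the 2 libraries overlapped.

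LPAR1, a receptor of the lipid mediator lysophosphatidic acid (chr9:110873263-111038458, minus strand), was concentrated in GCG-rich cells. It was at 169 (160.3 to 178), 94.5 (90.1 to 99.2) and 118 (113 to 124) CPM in GCG-rich cells and at 5.88, 9.40 and 8.67 in INS-rich, 15.2, 11.1 and 16.8 in SST-rich and 4.85, 4.96 and 6.93 in TPH1-rich cells. GCG-rich exceeded INS-rich cells 28.8-fold (25.9 to 31.9), 10.1-fold (8.59 to 11.9) and 13.6-fold (12.2 to 15.2), and SST-rich cells 11.1-fold, 8.53-fold and 7.03-fold. Thinned, 66.5%, 50.8% and 51.1% of GCG-rich cells held a UMI against 3.70%, 8.72% and 5.61% of INS-rich cells. LPAR1 was higher in cluster 6 of the GCG-rich cells (212, 134 and 158 CPM) than in cluster 5 (146, 88.2 and 108). In CD49a-positive SST-rich cells, 15 of the 25 UMIs lay in 1 cell. Cells that passed no class mark held LPAR1 at 43.9, 45.5 and 44.7 CPM.

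ADRA2A, the adrenoceptor through which adrenaline restrains insulin secretion (chr10:111077163-111080907, plus strand), was found in INS-rich and TPH1-rich cells. It was at 24.4 (23.3 to 25.5), 25.9 (23.6 to 28.4) and 26.9 (25.4 to 28.4) CPM in INS-rich, a narrow range over libraries, and at 27.9, 42.2 and 39.3 in TPH1-rich cells. GCG-rich cells held 1.49, 3.90 and 2.85 CPM and SST-rich cells 5.47, 6.54 and 3.82. TPH1-rich exceeded GCG-rich cells 18.7-fold (10.2 to 37.4), 10.8-fold (8.46 to 14.1) and 13.8-fold (10.2 to 19.2), and INS-rich exceeded them 16.3-fold, 6.65-fold and 9.44-fold. The GCG-rich levels were 6.13%, 15.0% and 10.6% of the INS-rich ones. INS RNA in GCG-rich cells was at 10.1%, 10.3% and 9.29% of its INS-rich level, a share that depends on the INS class mark. TPH1-rich and INS-rich cells overlapped in the CD49a-positive library and not in the other two, where TPH1-rich was 1.63-fold and 1.46-fold higher.

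SSTR2, a receptor of somatostatin that couples to Gi (chr17:73165012-73176633, plus strand), was highest in GCG-rich cells and present in every class. It was at 376 (363 to 390.0), 385 (376 to 394) and 410 (400 to 420) CPM in GCG-rich cells, and 96.9% to 97.2% of thinned GCG-rich cells held a UMI. SST-rich cells held 171, 153 and 179 CPM, TPH1-rich cells 101, 131 and 132, and INS-rich cells 70.2, 137 and 108. GCG-rich exceeded SST-rich cells 2.20-fold (1.95 to 2.50), 2.51-fold (2.30 to 2.75) and 2.29-fold (2.08 to 2.52) and INS-rich cells 5.36-fold, 2.82-fold and 3.78-fold. SST-rich cells ranked below GCG-rich and above INS-rich and TPH1-rich cells in each library.

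Across the 12 sums of 4 classes and 3 libraries, LPAR1 and SSTR2 had the most alike patterns of any 2 receptors (Pearson r = 0.95 of log2(CPM + 1)), followed by GLP1R and ADRA2A (r = 0.90). LPAR1 and GCGR ran opposite (r = -0.87), as did LPAR1 and ADRA2A (r = -0.86). The sums share libraries and classes, so these values describe the pattern only. Among 10295 other genes, SSTR2 was like PEMT and CDC42EP3 (r = 0.98 and 0.96), LPAR1 like LRATD1, LDB2 and MAGI2-AS3 (0.99, 0.99 and 0.98), and ADRA2A like ETS2, PKDCC and NKX6-1 (0.98 each). NKX6-1, a listed beta cell marker, was at 117 to 126 CPM in INS-rich and at 97.3 to 130 in TPH1-rich cells. FFAR1 was like GNAS and PLPPR4 (0.97 and 0.96), PTH2R like ATRNL1, AL024495.1 and MIR217HG (0.97 each), and GLP1R like PRDM16-DT, LRTM1 and ACOXL (0.98, 0.98 and 0.97). The nearest genes of GIPR were FAM160A1, XKR6 and WNK3 (0.98, 0.97 and 0.97), of GCGR MFAP4, EPOR and ENHO (0.98, 0.95 and 0.95), and of CASR GPR158, TEC and MLXIPL (0.95, 0.95 and 0.94).

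The CD49a sort was then compared within classes, where 1 library stands on each side and called means past 2-fold between them. In INS-rich cells none of the 9 receptors was called between CD49a-positive and CD49a-negative cells (0.403% of 12147 genes were), nor between either and unsorted cells (0.117% and 0.148%). The largest difference was in SSTR2, at 70.2 CPM in CD49a-positive and 137 in CD49a-negative cells, 1.95-fold higher in the latter (1.86 to 2.04), with the unsorted cells between. Within the 6 clusters it was higher in the CD49a-negative library in 6 of 6, by 1.13 to 1.52-fold, less than over the whole class. In clusters 1 (0.996 to 1.29) and 9 (0.606 to 2.45) the interval of that ratio held equality. GCG RNA in INS-rich cells moved the same way as SSTR2, from 1835 CPM in CD49a-positive to 5947 in CD49a-negative and 3751 in unsorted cells, and its part in the SSTR2 difference was not tested. GLP1R, GCGR, PTH2R and LPAR1 were also higher in CD49a-negative INS-rich cells, by 1.43-fold (1.31 to 1.56), 1.68-fold (1.44 to 1.95), 1.48-fold (1.42 to 1.55) and 1.60-fold (1.33 to 1.90). Within the 6 clusters GLP1R and GCGR were higher in the CD49a-negative library in 6 of 6. The interval held equality for GLP1R in cluster 9 (1.01-fold, 0.298 to 2.72) and for GCGR in clusters 0, 1 and 9. LPAR1 was higher in the CD49a-negative library in 3 of 6, by 0.740 to 1.36-fold, so no cluster reached the LPAR1 difference of the whole class. Cluster 8, which is not among the 6, held 0.793% of CD49a-positive and 10.8% of CD49a-negative INS-rich cells. GCG RNA in INS-rich cells stood at 2.14% of its GCG-rich level in the CD49a-positive and 7.21% in the CD49a-negative library, and TPH1 RNA at 2.42% and 6.43% of its TPH1-rich level, and their part in these 4 differences was not tested. PTH2R was higher there in 4 of 6 clusters, by 1.84 to 3.98-fold in clusters 0, 1, 2 and 7, and was at 0.813-fold (0.716 to 0.923) in cluster 11 and 0.532-fold (0.103 to 1.74) in cluster 9. FFAR1 was 1.17-fold (1.07 to 1.29) higher in CD49a-positive cells, but within each of the 6 clusters its interval held equality. GIPR, CASR and ADRA2A overlapped between CD49a-positive and CD49a-negative INS-rich cells over the whole class. Within clusters, CASR was higher in the CD49a-negative library in 5 of 6. It was so beyond counting error in clusters 0 (1.41-fold, 1.29 to 1.53), 1 (1.46-fold, 1.29 to 1.66) and 7 (1.18-fold, 1.12 to 1.25). FFAR1, GIPR and ADRA2A were each higher there in 2 of 6.

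**Figure D4:**
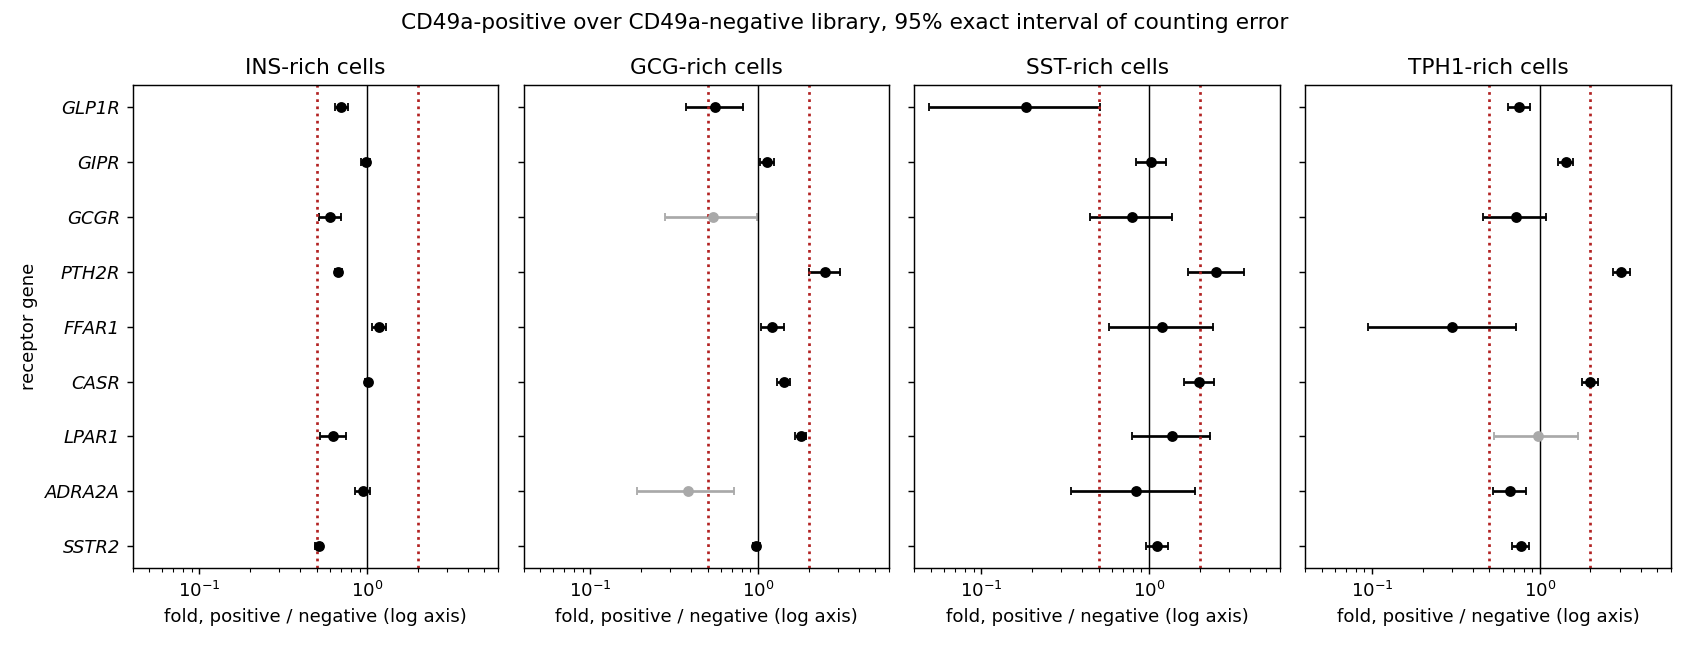
Fold of CD49a-positive over CD49a-negative cells (log axis) for each receptor in each class, with 95% exact intervals of counting error; dotted lines mark 2-fold, and grey points fall under the floor of 5 CPM and 20 UMIs. All INS-rich points lie inside the dotted lines, and PTH2R lies to the right of them in the other 3 classes.

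PTH2R was called higher in CD49a-positive than in CD49a-negative cells in the 3 classes other than INS-rich. Of 15 other ways of processing, the call was not made under 1 in TPH1-rich, 7 in GCG-rich and 2 in SST-rich cells, and in SST-rich cells a stricter cell filter reversed it (log2 difference -0.14). In TPH1-rich cells its 146 CPM (133 to 159) in the CD49a-positive library was 3.06-fold (2.72 to 3.43) the 47.6 of CD49a-negative and 2.74-fold (2.44 to 3.08) the 53.1 of unsorted cells. In TPH1-rich cells 2 receptors were called in each of these comparisons, PTH2R higher and FFAR1 lower in CD49a-positive cells, against 5.30% and 2.07% of all genes, and none between CD49a-negative and unsorted cells (0.328%). The makeup of the class differed between libraries: cluster 11 held 14 of the 91 CD49a-positive TPH1-rich cells and 60.9% of their PTH2R UMIs, 23 of 429 CD49a-negative cells and 29.0%, and 28 of 412 unsorted cells and 41.2%. Outside cluster 11 the levels were 68.7, 35.5 and 34.0 CPM. There CD49a-positive was 1.94-fold (1.63 to 2.29) above CD49a-negative and 2.02-fold (1.70 to 2.40) above unsorted cells. The log2(CPM + 1) differences of 0.94 and 0.99 are short of a call. Within cluster 11 PTH2R was at 520 (462 to 583), 299 (261 to 340) and 268 (240 to 298) CPM, and within cluster 10 at 82.4, 57.3 and 42.7. Cluster 16 ran the other way, at 3.93, 53.9 and 18.3 CPM, and clusters with few CD49a-positive cells varied. Cluster 11 was chosen after seeing the data, as the one with the most PTH2R UMIs of the class. The FFAR1 difference rested on 5 UMIs in CD49a-positive cells (1.52 CPM, 0.492 to 3.54) against 82 UMIs (5.09, 4.05 to 6.31) in CD49a-negative cells, and its direction reversed under 5 other ways of processing. The summed markers of dividing cells (MKI67, TOP2A, CENPF and UBE2C) were at 103, 32.8 and 10.7 CPM in TPH1-rich cells, and their part in these differences was not tested.

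In GCG-rich cells PTH2R alone of the 7 receptors that passed the floor was called, at 23.4 CPM in CD49a-positive against 9.37 in CD49a-negative (2.50-fold, 2.02 to 3.10) and 10.3 in unsorted cells (2.27-fold, 1.83 to 2.82). The shares of all genes called were 0.525% and 0.285%, and 0.0978% between CD49a-negative and unsorted cells, where no receptor was called. Without the cells of cluster 1 described above, which hold the most PTH2R UMIs of the class, the levels were 10.9, 5.26 and 1.72 CPM. CD49a-positive was then 2.06-fold (1.50 to 2.83) above CD49a-negative, a log2(CPM + 1) difference of 0.92 that is short of a call, and 6.33-fold (4.01 to 10.3) above unsorted cells. These values again rest on few cells. Of the 78 CD49a-positive UMIs left, 33 lay in 8 cells of cluster 3, 22 in 2 cells of cluster 16 and 8 in 1 cell of cluster 8. Neither call was made when each cell was given equal weight. LPAR1 was 1.79-fold (1.67 to 1.92) higher in CD49a-positive than in CD49a-negative GCG-rich cells and SSTR2 overlapped between them.

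In SST-rich cells, the fewest of the 4 classes, GLP1R was called lower and PTH2R higher in the CD49a-positive than in the CD49a-negative library, with 3.50% of all genes called. GLP1R was called lower than in the unsorted library (2.76%), and CASR lower in the CD49a-negative than in the unsorted library (2.03%). The CASR call was not made under 8 of 15 other ways of processing, and the GLP1R calls were not made under 4 and 3, with classes from clusters reversing both (log2 differences of 0.07 and 0.06). GLP1R stood on 4 UMIs in 36 cells (2.43 CPM, 0.663 to 6.23) against 46 UMIs in 87 cells (13.1, 9.57 to 17.4) and 46 in 72 cells (17.6, 12.9 to 23.4). The cells sat in different clusters: in the CD49a-negative library 16 of the 46 UMIs lay in 5 cells of cluster 3 and 21 in 6 cells of cluster 8, while the CD49a-positive library had 1 SST-rich cell in cluster 8 and none in cluster 3. In clusters 4 and 12, which held most SST-rich cells of both libraries, GLP1R was at 1.44 and 2.11 CPM in CD49a-positive against 1.54 and 3.33 in CD49a-negative cells. PTH2R was at 37.1 (28.4 to 47.6) against 14.8 (11.0 to 19.4) CPM, with 30 of the 61 CD49a-positive UMIs in 1 cell. The summed markers of dividing cells held no UMI in CD49a-positive SST-rich cells and stood at 75.0 and 32.1 CPM in CD49a-negative and unsorted ones, and their part in these differences was not tested.

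Over all kept cells, SSTR2 was the 1 receptor called between CD49a-positive and CD49a-negative cells (background 2.42%), at 106 CPM (105 to 108) against 228 (225 to 231), 2.14-fold (2.09 to 2.19) higher in the latter. Unsorted cells held 188 CPM, and no receptor was called between unsorted and CD49a-positive cells (0.700%) or unsorted and CD49a-negative cells (0.129%). GCG-rich cells, where SSTR2 was highest, were 192 of 2394 CD49a-positive, 392 of 1976 CD49a-negative and 347 of 2256 unsorted cells, and within them SSTR2 differed by no more than 1.09-fold between libraries. It was at 70.2, 137 and 108 CPM in INS-rich cells and at 126, 275 and 243 in cells that passed no class mark. SST-rich cells held 171, 153 and 179 CPM and TPH1-rich cells 101, 131 and 132. Over whole libraries, more cells of a class and more RNA per cell cannot be told apart.

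Of 77 other receptors described in islets or enteroendocrine cells, 29 reached 5 CPM in any class of any library. Like LPAR1, 2 of them were higher in GCG-rich than in INS-rich cells. PTGER3, a prostaglandin E2 receptor that couples to Gi, was at 107, 75.6 and 82.8 CPM in GCG-rich cells and at 37.7, 36.0 and 40.1 in INS-rich cells, and AVPR1B, a vasopressin receptor, at 9.59, 8.19 and 8.54 against 0.851, 3.10 and 1.34. SCTR, the secretin receptor, was low in GCG-rich cells, at 4.48, 6.32 and 6.83 CPM, against 27.1, 26.2 and 24.7 in INS-rich cells. SCTR and ADRA1B were called higher and AVPR1B and PTGER3 lower in INS-rich cells, 4 of the 21 eligible receptors of the list (background 5.55%), whose median log2 difference was 0.03 against -0.01 over all genes. Between GCG-rich and TPH1-rich cells 2 of 21 were higher and 7 lower in GCG-rich cells (background 9.25%, median -0.79 against -0.13). Those 7 included ADRA1B, an alpha-1 adrenoceptor, at 22.7, 20.5 and 27.9 CPM in TPH1-rich and 1.25, 1.86 and 2.02 in GCG-rich cells, and NPY1R, a neuropeptide Y receptor, at 18.2, 32.2 and 34.0 against 1.62, 3.56 and 2.85. CALCR, the calcitonin receptor, was highest in SST-rich cells, at 14.0, 33.0 and 27.9 CPM against 0.875, 2.27 and 1.23 in INS-rich cells.

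Of 13 G protein alpha subunits, 10 or 11 were eligible in each pair of classes and none was called in any of the 6 pairs, with a median log2 difference of 0.21 between INS-rich and GCG-rich and -0.33 between GCG-rich and TPH1-rich cells. With 2.74% to 9.25% of all genes called in these pairs, few calls in so short a list are no result about it. GNAS, which encodes Gs alpha, was at 5451, 4764 and 5553 CPM in INS-rich and 1836, 2415 and 2245 in TPH1-rich cells. Of 10 receptor kinases, arrestins and RAMP proteins, RAMP1, an accessory protein of class B receptors, was the 1 called between classes, at 3.24, 6.89 and 3.04 CPM in GCG-rich against 18.0, 25.1 and 19.5 in INS-rich and 38.8, 50.4 and 32.7 in TPH1-rich cells. Of 11 listed genes for ligands of these or related receptors, or for enzymes that make such ligands, 5 reached 5 CPM in any class. Between GCG-rich and TPH1-rich cells 4 of these 5 were called (background 9.25%), GCG and PNMT higher and PTHLH and ENPP2 lower in GCG-rich cells, where GCG itself defined the class. ENPP2, whose product autotaxin makes lysophosphatidic acid, was at 142, 189 and 176 CPM in TPH1-rich and 46.8, 51.7 and 46.1 in GCG-rich cells, the class where LPAR1 was highest.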

How the data were processed

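The deposited matrices hold raw UMI counts. Cell Ranger 7.1.0 and GRCh38 are named in the submitters' processing notes. Whether intronic reads were counted, and the annotation release, are not given in the sources used here. The 3 libraries held 4512, 2566 and 2811 barcodes and 127119509, 88397368 and 114479071 UMIs (CD49a-positive, CD49a-negative, unsorted).

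UMIs were summed per library and class and scaled to CPM of the sum. Intervals are exact Poisson or exact binomial at 95%. Classes used fixed marks per cell. No doublet caller was run; cells past 2 or more marks were set apart. Each group was a single library, so nothing was tested, and the 2-fold rule on log2(CPM + 1) with its floor of 5 CPM and 20 UMIs stood in. The code was tested on simulated data for INS-rich against GCG-rich cells, with counting error and no spread between libraries: of 200 genes changed 4-fold among 11888, 100% were recovered and 0% of the others called. This checks the code and not how the rule behaves near 2-fold or with 1 library per group. Clusters used 2000 variable genes without the receptors, 30 principal components, 20 neighbours and Leiden resolution 1. Thinning drew 10000 UMIs per cell and left out shallower cells.

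The text names all 9 receptors, the 3 genes most correlated with each over the 12 sums (mean of 10 CPM or more), and draws from each list on the up to 8 called genes with the largest differences and the 5 most abundant, giving the rest as counts. For SSTR2 and FFAR1, 1 of the 3 correlated genes is not reported here. The receptors and lists were chosen with earlier results of these data known. Gene positions came from GENCODE on GRCh38, matched by identifier for 9 of 9 receptors, and promoters from RefSeq on GRCh38.p14. LPAR1 has 6 promoter entries and the others 1. For PTH2R and FFAR1 the RefSeq start lies well away from the GENCODE gene start. The alternatives tried are given in the closing section, and 2 of them were chosen after seeing the data. Software was Python 3.11.15, numpy 2.4.6, scipy 1.17.1, pandas 2.3.3, scanpy 1.11.5 and matplotlib 3.10.9.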

Additional observations from a re-analysis of the deposited data

Results flagged for a closer look

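Some receptors moved in opposite directions between the same 2 libraries in different classes. These differences of log2 ratios were not tested, and each rests on 1 library per side. Between CD49a-positive and CD49a-negative cells, PTH2R had log2 ratios of 1.59 in TPH1-rich, 1.27 in SST-rich and 1.23 in GCG-rich cells but -0.56 in INS-rich cells, gaps of 2.16, 1.83 and 1.80. LPAR1 was at 0.83 in GCG-rich and -0.59 in INS-rich cells, a gap of 1.43. Within clusters of INS-rich cells LPAR1 was higher in the CD49a-negative library in 3 of 6, and GCG RNA in INS-rich cells stood at 1835 CPM in the CD49a-positive and 5947 in the CD49a-negative library. FFAR1 was at 0.23 in INS-rich, 0.27 in GCG-rich and -1.27 in TPH1-rich cells, gaps of 1.50 and 1.55. The TPH1-rich value rests on 5 UMIs in the CD49a-positive library and was positive under 5 alternatives (1.25, 0.51, 1.60, 0.67 and 0.22), which leaves no opposite direction there. Between CD49a-positive and unsorted cells, LPAR1 was at 0.51 in GCG-rich and -0.49 in INS-rich cells (gap 1.0). GIPR was at 0.23 in GCG-rich, 0.34 in TPH1-rich and -0.07 in INS-rich cells (gaps 0.30 and 0.41).

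Between CD49a-negative and unsorted cells, INS-rich cells went up where other classes went down. PTH2R was at 0.65 in INS-rich, -0.55 in SST-rich and -0.15 in TPH1-rich cells (gaps 1.20 and 0.80). CASR was at 0.10 in INS-rich, -0.34 in GCG-rich, -1.01 in SST-rich and -0.45 in TPH1-rich cells (gaps 0.44, 1.11 and 0.55). SSTR2 was at 0.33 in INS-rich, -0.09 in GCG-rich and -0.22 in SST-rich cells (gaps 0.42 and 0.56).

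All 9 receptors were also found in the 3263 barcodes outside the cell filter, which held 12950078 UMIs and enter no comparison above. CASR was at 110 CPM there, GIPR at 98.2, SSTR2 at 88.2, PTH2R at 65.6, GLP1R at 35.8, ADRA2A at 16.8, LPAR1 at 12.1, GCGR at 11.0 and FFAR1 at 10.0, where the limit that a count of 0 allows, taken as 3 UMIs of the total, is 0.232 CPM.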

How the results depend on the processing

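With 1 library per group, precision is set by counting alone, and 36 CD49a-positive SST-rich cells limit that class most. Over 15 alternatives, 26 differences between classes gave 390 values, of which 0 reversed and 370 stayed past 2-fold; 11 differences between libraries gave 165, of which 13 reversed and 118 stayed past. Leaving aside the pseudocount and the filter on low genes, which cannot change it, the highest class was the same in 39 of 39 values for GLP1R, GIPR, CASR, LPAR1, ADRA2A and SSTR2, 38 for FFAR1, 37 for PTH2R and 31 for GCGR. Leaving out barcodes shared by libraries, or under 10000 UMIs, were alternatives chosen after seeing the data, and neither moved a count by over 1.5 times or reversed a difference.

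Counts of called receptors by class pair moved as follows. INS-rich against SST-rich cells went from 3 to 5 with thresholds halved, and GCG-rich against SST-rich from 3 to 5 with mixed cells assigned to a class. INS-rich against TPH1-rich went from 2 to 1 with Leiden classes, and SST-rich against TPH1-rich from 4 to 2 with a stricter cell filter.

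Between CD49a-positive and CD49a-negative libraries, INS-rich cells went from 0 to 1 with Leiden classes and with the stricter filter. GCG-rich cells went from 1 to 0 with thresholds halved, mixed cells assigned, Leiden classes, cells weighted equally, cells thinned or a pseudocount of 5, and against unsorted cells from 1 to 0 under the same settings except halved thresholds. SST-rich cells went from 2 to 1 with thresholds doubled or the stricter filter and to 0 thinned; against unsorted cells they went from 1 to 2 with thresholds doubled, equal weights or the stricter filter and to 0 thinned. TPH1-rich cells went from 2 to 1 with thresholds halved, median-of-ratios factors, without the deepest 5% or a pseudocount of 5; against unsorted cells 1 remained with thresholds halved, mixed cells assigned, Leiden classes, median-of-ratios factors, equal weights, a wider filter or the pseudocount of 5. All kept cells went from 1 to 0 when thinned.

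Between CD49a-negative and unsorted libraries, GCG-rich cells went from 0 to 1 with thresholds doubled. The single SST-rich call became 0 with thresholds halved or doubled, mixed cells assigned, Leiden classes, equal weights, thinning, the wider filter or the pseudocount of 5, and 2 with the stricter filter or without the deepest cells.

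Reversed log2 differences were these. For GLP1R in SST-rich cells, Leiden classes gave 0.07 (CD49a-positive against CD49a-negative) and 0.06 (against unsorted). For PTH2R in SST-rich cells the stricter filter gave -0.14. For FFAR1 in TPH1-rich cells, the 2 comparisons gave 1.25 and 1.35 with thresholds doubled, 0.51 and 0.41 with mixed cells assigned, 1.60 and 0.96 with Leiden classes, 0.67 and 0.18 with equal weights and 0.22 and 0.07 thinned. The cause was not tested. No paired analysis was possible because each group held 1 library.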

Other observations

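A shallow set of INS-rich barcodes carried the receptors unevenly. These were 252 CD49a-positive, 41 CD49a-negative and 54 unsorted INS-rich barcodes in clusters whose median UMI count was less than the median of all kept cells divided by 3, with medians of 3477.5, 5164 and 5457 UMIs, and the nuclear RNA MALAT1 was at 13.2%, 13.5% and 3.19% of its level in the other INS-rich cells. PTH2R was at 17.6% (95% interval 11.4 to 26.1), 5.71% (1.18 to 16.7) and 0% (at most 10.0) of its level in the other INS-rich cells. GIPR was at 23.5%, 9.85% and 17.4% and CASR at 23.4%, 33.0% and 33.3%. FFAR1 was at 75.6% (54.2 to 103), 78.4% (35.7 to 150.0) and 61.1% (27.9 to 116), ADRA2A at 74.4% and 41.4% in the sorted libraries and at 26.9 CPM against 26.9 CPM in the unsorted one, and GCGR at 85.3%, 81.9% and 121%, and for these 3 receptors the interval of the ratio to the other INS-rich cells held equality in each library. Over the annotated gene, PTH2R spans 494790 and CASR 107947 bases, against 2311 for FFAR1 and 3745 for ADRA2A, but GIPR spans 15481 and GCGR 9882. Of the other 3 receptors, SSTR2 (11622 bases) was at 25.4% to 44.8%, GLP1R (38946 bases) at 36.9% to 76.8%, and LPAR1 (165196 bases, 5 UMIs) at 0% to 45.4%. The LPAR1 interval also held equality in each library. Over the 3 libraries these barcodes held 28 PTH2R, 37 GIPR, 128 CASR, 59 FFAR1, 42 ADRA2A and 19 GCGR UMIs.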
